A study of Mus musculus with 21 samples.

Results

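Tubulins, the proteins that bind or nucleate microtubules and the enzymes that modify tubulin were followed in the subcommissural organ (SCO) and the hippocampus of newborn mice. The SCO is a secretory gland of specialised ependyma at the caudal end of the third ventricle. Members were the protein-coding rows of the deposited table whose symbols belong to the tubulin, MAP, MAP7, doublecortin, stathmin, end-binding, CLIP, CLASP, TTLL, vasohibin, AGBL or TPPP families. This gave 64 of 31883 genes. The bulk RNA sequencing libraries came from C57BL/6 mice at postnatal day 0 (P0), 4 from SCO and 5 from hippocampus, and the labels name no other allele and no treatment. The 12 samples of postnatal day 60, 6 from each tissue, were not analysed here. Whether each library stands for a different animal is not stated in the labels, and p-values therefore cover the spread between these libraries, which may be technical.

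Microtubules are hollow polymers of alpha and beta tubulin dimers, nucleated by gamma tubulin. In neurons they are stabilised by microtubule-associated proteins (MAPs), and in motile cilia they form the axoneme, whose tubulin tails are heavily glutamylated and glycylated. Ligases of the TTLL family add these chains of amino acids, and cytosolic carboxypeptidases remove glutamates again.

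Values are normalized counts, that is the reads of a gene after division by the size factor of its library. The libraries held 35379988 to 151009954 reads. Calls were made in limma over all 28150 tested genes, at a p under 0.05 after Benjamini-Hochberg adjustment. Every log2 fold change is SCO minus hippocampus and was taken on log2(value + 1). Of the 64 members, 63 passed the filter of a mean of at least 1 normalized count in either tissue, and 56 of these had reads in all 9 libraries. Tuba3b, with 1 read in a single library, was not tested.

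Markers of the dissected tissues ran with the labels. The summed level of 4 SCO genes (Sspo, Spdef, Car3 and Pax6) was 14509 to 36859 normalized counts in SCO and 874 to 2161 in hippocampus, and all 4 were called higher in SCO. For 5 excitatory neuron genes of hippocampus and cortex the sums were 65.7 to 1791 in SCO and 71641 to 86480 in hippocampus, with all 5 called lower. Of 5 habenular, thalamic and midbrain neuron genes 4 were called higher (24909 to 34097 in SCO, 1767 to 4294 in hippocampus). Blood genes were also higher in SCO (45492 to 79147.5 against 4233 to 27027, 4 of 5 called), and 6 choroid plexus genes summed to 9128 to 183047 in SCO and 83.6 to 13941 in hippocampus. The high end is Ttr in SCO replicate 4 (171311, against 108 to 560 in the other SCO libraries). The other 5 choroid plexus genes summed to 9021 to 12293 in SCO, with 11736 in replicate 4, and to 81.5 to 956 in hippocampus. Most of this sum in SCO was Otx2, at 7705 to 8708. Hippocampus replicate 2 stood apart by transcript length: its median log2 ratio to the other hippocampus libraries was 0.56 over the third of genes with the shortest exons and -0.29 over the third with the longest, while the other 8 libraries lay between -0.14 and 0.27 in each length class.

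Of the 63 tested members, 1 was called higher in SCO (Tppp3) and 4 were called lower (Dcx, Map1b, Mapt and Tubb5). In bulk samples, fewer cells of a type and less RNA per cell cannot be told apart. Among all tested genes 1.71% were called higher and 1.34% lower, 3.05% in all. The share of members called higher was 1.59%, near that background, and the share called lower was 6.35%. The median log2 fold change of the members was -0.37, with 40 negative and 23 positive values, against a median of -0.04 over all tested genes. The libraries of the tissues did not overlap for 10 members, 1 higher in SCO and 9 lower, which are 1.59% and 14.3% of those tested. Over all tested genes 4.78% did not overlap with SCO higher and 3.75% with SCO lower, 8.53% in all. The 9 lower members were Tuba1a, Tubb3, Tubb5, Map1b, Mapt, Dclk1, Dcx, Stmn1 and Stmn2.

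**Figure D1:**
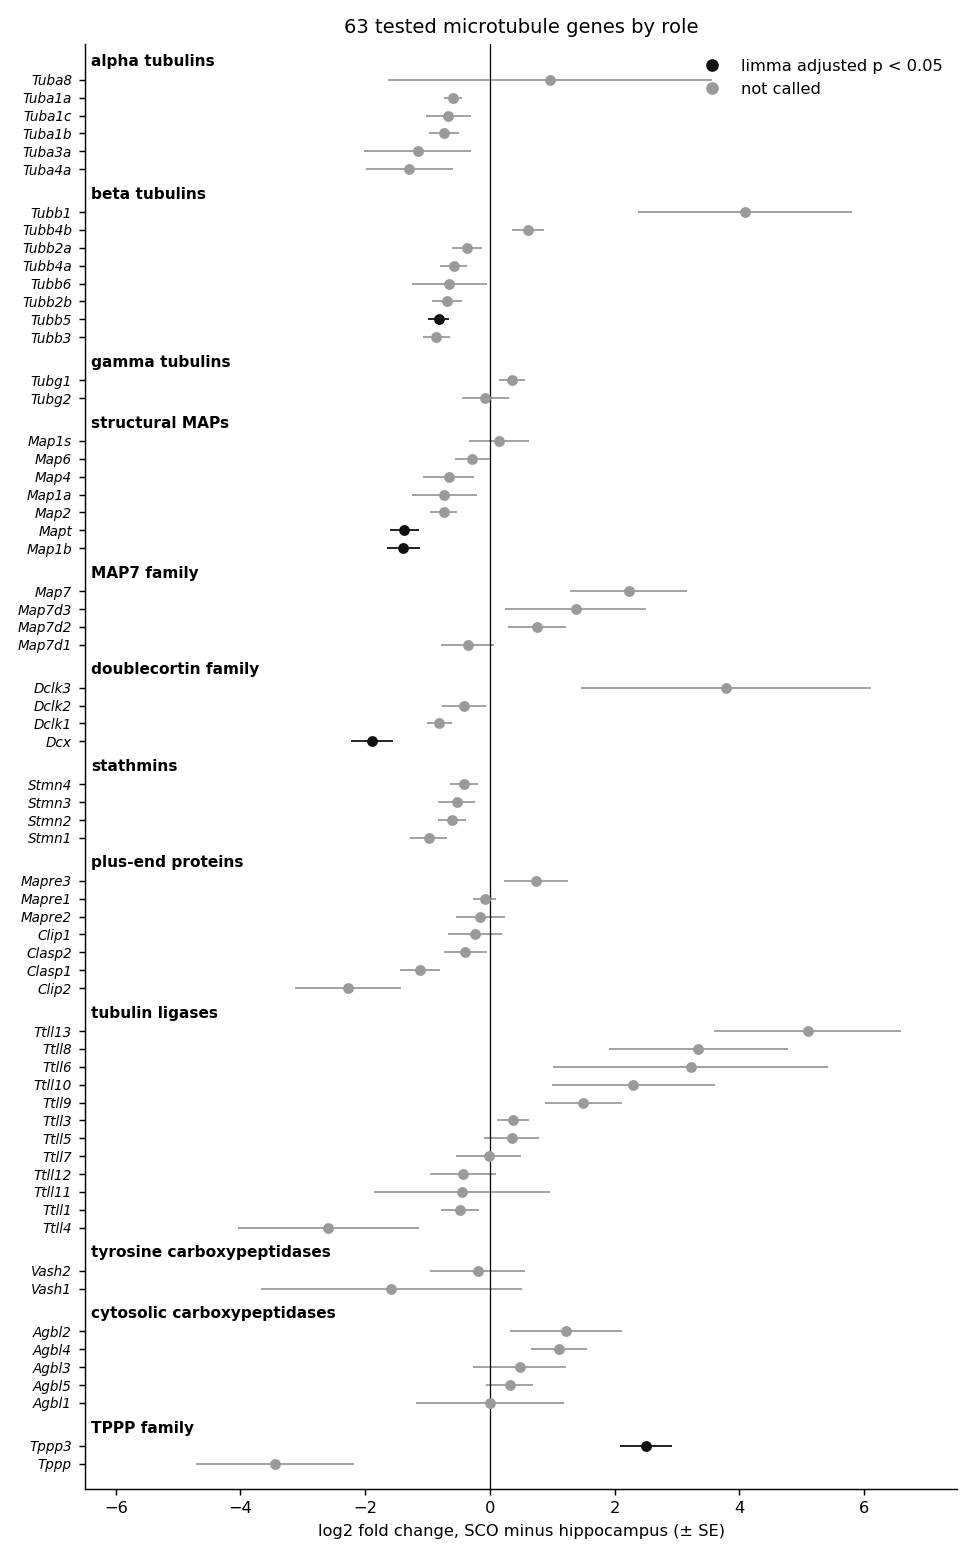
Log2 fold change of each of the 63 tested genes, SCO minus hippocampus, with its standard error (4 SCO and 5 hippocampus libraries), grouped by role; black points passed limma at an adjusted p under 0.05. Tppp3 is the black point on the right, and Dcx, Map1b, Mapt and Tubb5 are those on the left.

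Of the lower calls, those of Map1b and Tubb5 depended on single libraries. Those of Dcx and Mapt held whichever library was left out, as did the higher call. Without hippocampus replicate 2, the library that departs with transcript length, 1 member was called higher and 7 lower: Dclk1, Map2 and Tubb4a joined the 4 above. The shares of all genes in that fit were 2.32% and 1.54%. In 4 of the 9 fits that leave out 1 library, only Dcx and Mapt were called lower. These were the fits without SCO replicate 1 or 2 and without hippocampus replicate 1 or 3. In edgeR, 1 member was called higher and 3 lower, all but Tubb5, against 1.07% and 0.721% of all genes.

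The called genes lie apart in the genome (build GRCm38). Dcx (ENSMUSG00000031285.14) spans 143855842 to 143933311 on the minus strand of chromosome X, and Map1b (ENSMUSG00000052727.6) 99421446 to 99516540 on the minus strand of chromosome 13. Tubb5 (ENSMUSG00000001525.10) spans 35833921 to 35838306 on the minus strand of chromosome 17. Mapt (ENSMUSG00000018411.17) spans 104231390 to 104332090 on the plus strand of chromosome 11, and Tppp3 (ENSMUSG00000014846.12) 105467493 to 105471526 on the minus strand of chromosome 8. The values are sums over each gene and do not resolve exons from introns.

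The sequence before the start of the genes that fell together is shown where RefSeq promoter entries matched (3 of the 5 called genes, and 50 of 64 members). Each runs 5′ to 3′ on the minus strand and stops before the annotated gene. Capitals mark 5 motifs searched on both strands, with no overlap between them here: the CCAAT box (letters CCAAT), the GC box (letters GGGCGG), the TATA box (letters TATAAA), an E-box of proneural factors (letters CAGATG) and an arm of the X-box that RFX factors bind (letters GTTGCC).
Dcx, chrX:143933312-143933469: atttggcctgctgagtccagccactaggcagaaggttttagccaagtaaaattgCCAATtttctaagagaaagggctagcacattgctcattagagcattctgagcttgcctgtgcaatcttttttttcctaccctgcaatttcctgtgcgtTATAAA
Map1b, chr13:99516603-99516852: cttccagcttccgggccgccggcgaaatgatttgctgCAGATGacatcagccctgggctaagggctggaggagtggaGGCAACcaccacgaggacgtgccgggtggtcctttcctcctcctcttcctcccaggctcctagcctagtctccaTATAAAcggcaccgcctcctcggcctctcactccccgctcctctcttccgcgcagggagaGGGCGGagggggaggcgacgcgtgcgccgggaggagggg
Tubb5, chr17:35838307-35838551: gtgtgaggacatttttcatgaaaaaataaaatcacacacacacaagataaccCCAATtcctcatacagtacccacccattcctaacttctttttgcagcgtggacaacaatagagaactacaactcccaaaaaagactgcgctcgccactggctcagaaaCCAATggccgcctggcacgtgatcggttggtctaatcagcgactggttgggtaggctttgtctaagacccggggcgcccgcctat
A mark is a match to the letters, and whether any acts as a promoter element was not tested. The TATA box letters of Dcx start at base 153 of 158, directly before the annotated gene. In Map1b they start at base 152 of 250. These stretches share no motif across all 3. Dcx holds 1 CCAAT box and 1 TATA box, Map1b 1 each of the other 3 motifs and a TATA box, and Tubb5 2 CCAAT boxes. In windows of 250 bases before the start, the CCAAT box occurs in 33.9% of all 32851 RefSeq promoters, the GC box in 32.7%, the E-box in 14.4%, the TATA box in 12.4% and the X-box arm in 10.4%. Counted by gene over the same windows, the X-box arm occurs in 14 of the 50 matched members and 11.8% of 27025 genes, the GC box in 25 of 50 and 35.4%, and the CCAAT box in 22 of 50 and 37.5%. The TATA box and the E-box occur in 6 of 50 each, against 14.3% and 16.3% of genes. The Dcx and Tubb5 stretches printed are shorter than that window, at 158 and 245 bases.

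Alpha tubulin transcripts were dominated by Tuba1a, the main isotype of developing neurons. Tuba1a had 224610, 261681, 340359 and 318522 normalized counts in SCO replicates 1 to 4, against 369942, 416290, 454685, 501794 and 392792 in hippocampus replicates 1 to 5. Every SCO library lay below every hippocampus library, but the log2 fold change of -0.59 (SE 0.14) did not pass (limma adjusted p = 0.0567). Per kilobase of exon, Tuba1a averaged 158787 normalized counts in SCO and 236883 in hippocampus.

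Tuba1b, a broadly expressed isotype, averaged 44949.7 ± 11776 in the 4 SCO libraries and 75403 ± 20534 in the 5 hippocampus libraries (normalized counts, SD), a log2 fold change of -0.73 ± 0.24 (SE), with a limma adjusted p of 0.141. The balance between the alpha isotypes differed little between tissues. Tuba1a made up 83.7% to 89.8% of the summed alpha tubulin level per length in SCO and 82.7% to 88.5% in hippocampus, and Tuba1b 9.10% to 15.7% and 11.1% to 16.4%. Tuba4a ranged from 316 to 3650 normalized counts in SCO and from 874 to 4073 in hippocampus, with overlap. Tuba8 had reads in 2 libraries of each tissue, and Tuba3a in 2 hippocampus libraries only.

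Reads of these genes are hard to assign. Of the stretches of 100 bases in Tuba1a transcripts, 65.9% also occur in transcripts of another gene, mainly Tuba1c and Tuba1b. The share is 65.2% for Tuba1b, 46.0% for Tuba1c, 36.9% for Tubb2a, 26.0% for Tubb2b and 22.0% for Tubb4b. How the counting treated reads that match several genes is not stated in the sources at hand, so the division of reads within these groups is uncertain. For the called members such sharing was under 1%. Exons of Stk16 on the opposite strand cover 37.3% of the exon bases of Tuba4a, and whether the counting used strand is not stated either. On the same strand, exons of other genes cover 26.2% of the exon bases of Tuba1a and 22.7% of those of Tuba1b. This adds to the uncertainty of both values.

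Among beta tubulins, Tubb5 fell in SCO. Tubb5 encodes a beta tubulin of neural progenitors and other dividing cells, and its upstream sequence holds 2 matches to the CCAAT box letters. It had 73368, 57186, 100239 and 86509 normalized counts in SCO replicates 1 to 4. The hippocampus libraries held 122271, 160251, 135893, 145343 and 124698 in replicates 1 to 5. All SCO libraries lay below all hippocampus libraries (log2 fold change -0.82 ± 0.17 SE and adjusted p = 0.0291 in limma). The call held in 2 of the 9 fits with a library left out (those without SCO replicate 3 or hippocampus replicate 2, with an adjusted p of 0.0236 to 0.0812 over the 9) and did not hold in edgeR (adjusted p = 0.0825). The summed level of 6 markers of proliferating cells was 6323 to 11501 in SCO and 6625 to 12540 in hippocampus, with 0 of 6 called by limma. The sum hides a split, with 3 positive and 3 negative log2 fold changes. Mki67 (-4.26, SE 1.65) and Cenpf (-2.89, SE 1.12) were lowest, and the others lay between -0.24 and 0.47. Mki67 had 0, 7.38, 447 and 391 normalized counts in SCO replicates 1 to 4, against 332 to 919 in hippocampus. The part of dividing cells in the Tubb5 values was not tested.

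Tubb3, the neuron-specific isotype, had 33106, 31630.4, 55714 and 59870 normalized counts in SCO, against 70169.9, 72351, 92782, 91700.5 and 67924 in hippocampus. The tissues did not overlap, and the difference did not pass (log2 fold change -0.86 ± 0.22 SE and adjusted p = 0.0707 in limma). Without SCO replicate 4 it passed, at an adjusted p of 0.0486 in limma. Tubb2b and Tubb4a, both abundant in neurons, were not called, at -0.69 ± 0.24 and -0.58 ± 0.22 on the log2 scale (SE). Tubb2a, with 50691 ± 19852 in SCO and 61786 ± 5570 in hippocampus, stood with Tubb3 and Tubb5 at the highest levels per length among the beta tubulins.

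Tubb4b, an isotype of ciliary axonemes, was the abundant tubulin whose values ran the other way. It had 17344, 40923, 32726 and 19312 normalized counts in SCO, against 14601, 16637, 16622, 16471 and 20907 in hippocampus, with a log2 fold change of 0.61 (SE 0.26) that did not pass (limma adjusted p = 0.290). As a share of the summed beta tubulin level per length, Tubb4b made up 9.43%, 22.0%, 10.7% and 6.84% in SCO replicates 1 to 4. In hippocampus replicates 1 to 5 it made up 4.77%, 4.97%, 4.60%, 4.24% and 6.51%. Every SCO share was above every hippocampus share, and SCO replicate 2 held the highest. A share also rises when the sum falls. The summed beta tubulin level per length was 88120 to 146768 in SCO and 146538 to 186024 in hippocampus. The Tubb4b counts of SCO replicates 1 and 4 lay within the hippocampus range. Tubb3 made up 19.0% to 23.7% in SCO and 23.7% to 28.7% in hippocampus.

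**Figure D2:**
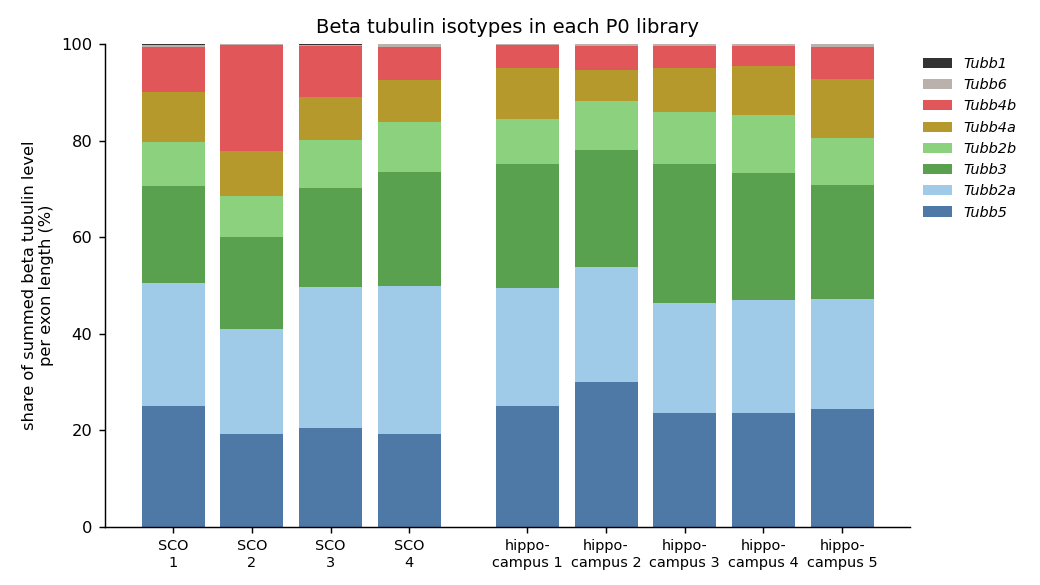
Share of each isotype in the summed beta tubulin level per exon length, in percent, for each P0 library of SCO (left) and hippocampus (right). Tubb4b takes 6.84% to 22.0% in SCO and 4.24% to 6.51% in hippocampus. A share depends on the summed level too, which ran lower in SCO.

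Tubb1, the beta tubulin of platelets and megakaryocytes, had 263 and 250.2 normalized counts in SCO replicates 1 and 3, 1.48 in replicate 2 and 0 in replicate 4. The hippocampus held 1 read over its 5 libraries. The difference did not pass in limma (adjusted p = 0.280), while DESeq2 called it (adjusted p = 0.00327). Blood markers were higher in SCO, as given above. Their part in the Tubb1 values was not tested. The gamma tubulin genes were not called: Tubg1 averaged 6146 ± 577 in SCO and 4846 ± 863 in hippocampus, and Tubg2 4577 ± 2442 and 4379 ± 977.

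Among structural MAPs, Map1b and Mapt fell in SCO. Map1b, a MAP of growing axons and the gene with 4 of the 5 motifs in its upstream sequence, had 42249, 44391, 67929 and 86721 normalized counts in SCO, against 181195, 93434, 155495, 154501 and 193366 in hippocampus. SCO replicate 4 came closest to the lowest hippocampus library, replicate 2, and the tissues did not overlap. Its log2 fold change was -1.39 ± 0.26 (SE), with a limma adjusted p of 0.0199. The call ended in 4 of the 9 fits with a library left out, those without SCO replicate 1 or 2 or hippocampus replicate 1 or 3 (adjusted p at most 0.0609).

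Mapt, which encodes the axonal MAP tau, had 11429, 14514, 25002 and 23272 normalized counts in SCO. In hippocampus it had 43843, 54514, 41979, 44289 and 44670.5. The highest SCO library was below the lowest hippocampus library (log2 fold change -1.37 ± 0.24 SE and adjusted p = 0.0119 in limma). This call held in all 9 fits with a library left out (adjusted p 0.0106 to 0.0394) and in edgeR (adjusted p = 0.0330).

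Map2, the dendritic MAP, averaged 16018 ± 2249 in SCO and 27209 ± 6165 in hippocampus, where replicate 2 held 17467 and the other libraries 25421 to 33369.7. It was not called (log2 fold change -0.74 ± 0.21 SE and adjusted p = 0.0981 in limma). Without hippocampus replicate 2 it was (log2 fold change -0.89 ± 0.14 SE and adjusted p = 0.00958 in limma). The other structural MAPs, Map1a, Map1s, Map4 and Map6, had log2 fold changes between -0.73 and 0.14 and overlapped between tissues.

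In the doublecortin family, Dcx fell furthest of the called members. Dcx is a MAP of migrating and immature neurons, with matches to the TATA box and CCAAT box letters in its upstream sequence. It had 5883, 5582, 11875 and 10920 normalized counts in SCO, against 42836, 15432, 35228, 30273 and 33672 in hippocampus. The tissues did not overlap, and hippocampus replicate 2 was the hippocampus library nearest to SCO. Its log2 fold change was -1.89 ± 0.34 (SE), with a limma adjusted p of 0.0149. Without hippocampus replicate 2 it was -2.12 ± 0.27 (SE), with a limma adjusted p of 0.00373. The call held in all 9 fits with a library left out and in edgeR (adjusted p = 0.0277).

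Dclk1, a kinase with doublecortin domains, had 11047, 10042, 16082 and 13044 normalized counts in SCO and 26016, 16564, 22518, 23148 and 21115 in hippocampus. It missed the threshold narrowly without overlap (log2 fold change -0.81 ± 0.20 SE and adjusted p = 0.0586 in limma), and passed without hippocampus replicate 2 (limma adjusted p = 0.0176). Dclk2 was at 2264 ± 749 in SCO and 3087 ± 1144 in hippocampus. Dclk3 had 448, 329, 313 and 0 in SCO and 0, 267, 27.9, 0 and 0 in hippocampus.

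Relative to Tubb3, Dcx ran lower in SCO. The ratio of their levels per length was 0.0261 to 0.0315 in the SCO libraries and 0.0315 to 0.0902 in hippocampus, where replicate 2 held the lowest ratio, level with the highest in SCO. This ratio was chosen after the values were seen and is a description. The corresponding ratio of Mapt to Tubb3 overlapped, with 0.0856 to 0.114 in SCO and 0.112 to 0.187 in hippocampus.

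**Figure D3:**
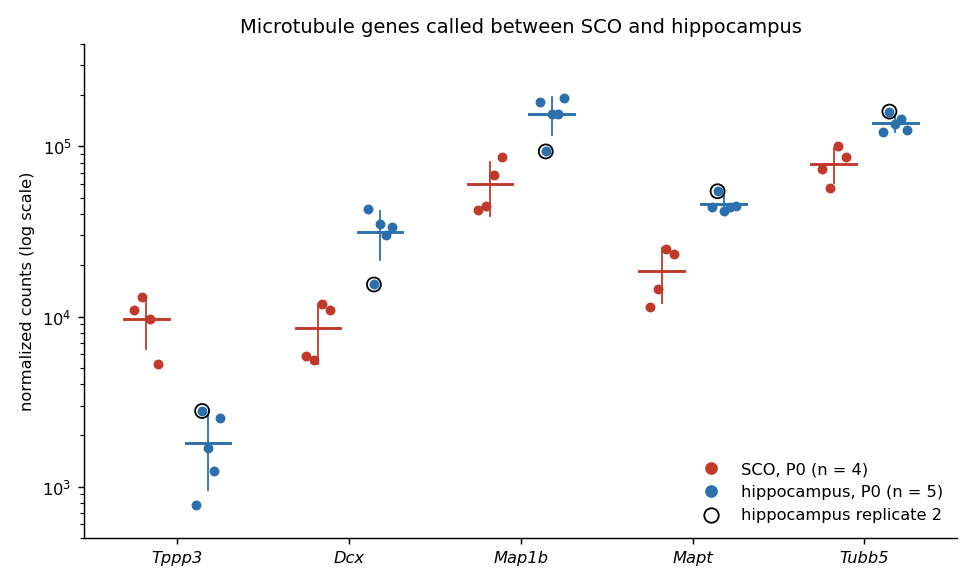
Normalized counts, on a log scale, of the 5 called genes in each library of SCO (left of each pair) and hippocampus (right); lines are means, bars are SD, and the ring marks hippocampus replicate 2. The tissues do not overlap for any of the 5, and for Dcx and Map1b the ringed library is the hippocampus library nearest to SCO.

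General neuron content was read from a list of 8 other genes. Its summed level was 62812, 59938, 93682 and 119393 normalized counts in SCO replicates 1 to 4, and 94046 to 120915 in hippocampus. Its median log2 fold change was -0.20, with 5 negative and 3 positive values (Nefl 0.86, Nefm 0.67 and Syp 0.52). Of the 8, 1 was called lower (Snap25). That call held in 2 of the 9 fits with a library left out and did not hold in edgeR (adjusted p = 0.0904). The part of neuron content in the values of Dcx, Mapt, Map1b and Tubb5 was not tested.

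The stathmins, which bind tubulin dimers and favour disassembly, all had negative log2 fold changes and 0 of 4 were called by limma. Of the 4, 2 had an unadjusted p under 0.05 in limma, edgeR called 0 and DESeq2 1. With 3.05% of all tested genes called by limma, 0 calls in a role this small do not set it apart. The share of all tested genes with an unadjusted p under 0.05 was not computed. Such counts, here and for the roles below, are therefore a description. Stmn1 had 83086, 58109, 117375 and 121295 normalized counts in SCO, against 134969, 337063, 161424, 175230 and 143606 in hippocampus. The tissues did not overlap, and hippocampus replicate 2 stood well above the other hippocampus libraries. The log2 fold change was -0.98 ± 0.30 (SE), with a limma adjusted p of 0.117. Without that library it was -0.75 ± 0.22 (SE), with a limma adjusted p of 0.120. Stmn2, a stathmin of growing axons, showed the same order, with 30786 to 62009 in SCO and 62461 to 99879.8 in hippocampus (a log2 difference of -0.61 ± 0.23 SE and adjusted p = 0.215 in limma). Stmn3 and Stmn4 overlapped.

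Plus-end proteins, which track or anchor growing microtubule ends, gave 0 calls among 7 members in limma (2 had an unadjusted p under 0.05, edgeR called 0 and DESeq2 1). Mapre1, which encodes the end-binding protein EB1, was nearly level, with 38188 ± 7231 normalized counts in SCO and 40314 ± 6472 in hippocampus (a log2 difference of -0.08 ± 0.18 SE and adjusted p = 0.847 in limma). Clasp1, an anchor of growing ends, averaged 2247 ± 902 in SCO and 4770 ± 1238 in hippocampus (a log2 difference of -1.12 ± 0.32 SE and adjusted p = 0.0954 in limma). It was called by DESeq2 (adjusted p = 0.0118). Clip2 had 30.2 to 247 in SCO and 94.3 to 744 in hippocampus.

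The MAP7 family, which recruits kinesin to microtubules, also gave 0 calls among 4 members in limma (1 had an unadjusted p under 0.05, and edgeR and DESeq2 called 0). Map7 had 1325, 1985, 1235 and 535 normalized counts in SCO and 57.4, 437, 513, 55.6 and 1204 in hippocampus (a log2 difference of 2.22 ± 0.94 SE and adjusted p = 0.286 in limma). Hippocampus replicate 5 reached into the SCO range. Map7d2 averaged 1336 ± 650 in SCO and 762 ± 289 in hippocampus. Map7d3 had reads in SCO replicate 4 alone, at 44.8.

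The TPPP family held the member that rose. Tppp3, a tubulin polymerization-promoting protein, had 10896, 13061, 9693 and 5290 normalized counts in SCO replicates 1 to 4, against 784, 2787, 1699, 1233 and 2533 in hippocampus replicates 1 to 5. The lowest SCO library, replicate 4, was above the highest hippocampus library, replicate 2. The log2 fold change was 2.50 ± 0.42 (SE), with a limma adjusted p of 0.0105. The call held in all 9 fits with a library left out (adjusted p 0.00892 to 0.0359) and in edgeR (adjusted p = 0.0151). The summed level of 10 markers of motile cilia and ependyma was also higher in SCO, at 30370 to 45921 against 6364 to 13395 in hippocampus, with 5 called. Of the 10, 8 had positive and 2 negative log2 fold changes (Hydin -1.83 ± 1.62 and Dnah5 -0.98 ± 2.40, SE). Foxj1 was not called (limma adjusted p = 0.654). The summed level of the choroid plexus genes other than Ttr was also above hippocampus in all SCO libraries, but most of it was Otx2. Otx2 was also the 1 called higher of the 5 choroid plexus genes tested. Folr1 did not overlap either (1205 to 2805 in SCO, 79.4 to 948 in hippocampus). Kl was at 0 in all SCO libraries and Aqp1 in SCO replicates 2 and 3, and Clic6 was at 0 and 1.48 in SCO replicates 1 and 2. The part of these cell types in the Tppp3 values was not tested.

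Its relative Tppp, a microtubule nucleator of oligodendrocytes, spread widely. It had 20.9, 738, 11.9 and 688 normalized counts in SCO and 1503, 385, 1571, 975 and 2780 in hippocampus. The tissues overlapped, and the log2 fold change of -3.45 (SE 1.27) did not pass (limma adjusted p = 0.205). Of 6 oligodendrocyte lineage markers 0 were called by limma, and their sum was 3990 to 9089 in SCO and 1585 to 5880 in hippocampus.

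Of the 19 tubulin-modifying enzymes tested, 0 were called by limma and 0 by edgeR, and DESeq2 called Ttll9. Limma called 3.05% of all tested genes, and 0 of 19 does not set the enzymes apart from that share. In limma 4 had an unadjusted p under 0.05, a description without a share of all genes beside it. The glutamylase gene Ttll1 had the highest level per length among the ligases, with 9352 ± 3077 normalized counts in SCO and 12916 ± 3565 in hippocampus. Ttll3, a glycylase gene, had 5904, 11478, 7698 and 5087 in SCO and 4383, 5822, 6080.5, 5781 and 5884 in hippocampus.

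The ligases with the highest fold changes were expressed at low levels. Ttll13, a glutamylase, had 59.7, 473, 630 and 673 normalized counts in SCO, against 3.75, 29.7, 1.03, 163 and 0.761 in hippocampus. SCO replicate 1 lay below hippocampus replicate 4, so the tissues overlapped, and the log2 fold change of 5.10 (SE 1.50) did not pass (limma adjusted p = 0.107). Without hippocampus replicate 4 it passed (limma adjusted p = 0.0493). Ttll8, a glycylase, had 516, 210, 436 and 600 in SCO and 21.2, 393, 229, 29.6 and 0.761 in hippocampus (a log2 difference of 3.35 ± 1.43 SE and adjusted p = 0.292 in limma).

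Ttll9, a glutamylase, had 485, 1744, 320.5 and 1586 normalized counts in SCO and 342, 219.6, 414, 165 and 369 in hippocampus, with overlap (log2 fold change 1.50 ± 0.61 SE and adjusted p = 0.266 in limma, DESeq2 adjusted p = 0.0238). Ttll6 and Ttll10 were highest in SCO replicate 2, at 1161 and 766. In the other SCO libraries they ranged from 0 to 194 and from 14.6 to 63.9, and in hippocampus from 0 to 215 and from 4.57 to 49.5. SCO replicate 2 also held the most Tubb4b, Ttll3 and Ttll9 in SCO. It held the least Ttll1 (5610, against 8054 to 11935 in the other SCO libraries) and the least Ttll8 (210, against 436 to 600).

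The carboxypeptidases were not called either. The 5 cytosolic carboxypeptidase genes had log2 fold changes of 0.00 (Agbl1) to 1.22 (Agbl2), and that of Agbl1 was -0.61 without hippocampus replicate 2. Agbl4 averaged 2792 ± 1116 in SCO and 1343 ± 611 in hippocampus (a log2 difference of 1.11 ± 0.45 SE and adjusted p = 0.262 in limma). Agbl5, whose product removes branch-point glutamates, had 6947, 7201, 9916 and 7252 in SCO, against 4212, 16042, 5386, 5360 and 4764 in hippocampus. Without hippocampus replicate 2, the library with 16042, its log2 fold change was 0.66 (SE 0.17) instead of 0.32 (SE 0.37). Agbl5 still did not pass (limma adjusted p = 0.0831). Of the stretches of 100 bases in Agbl5 transcripts, 7.02% also occur in transcripts of Ost4. Exons on the opposite strand cover 9.60% of the exon bases of Agbl5. Whether reads of another gene are part of the 16042 was not tested.

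Vash2, whose product trims the terminal tyrosine of alpha tubulin, had 3420, 3079, 5081 and 5532 normalized counts in SCO, against 9098, 545, 8031, 8573 and 7030 in hippocampus. The low value of hippocampus replicate 2 makes the tissues overlap. With that library the log2 fold change was -0.19 ± 0.76 (SE), with a limma adjusted p of 0.919. Without it the value was -0.97 ± 0.22 (SE), with a limma adjusted p of 0.0514. Vash1, its relative, had 0 to 55.2 in SCO and 0 to 208 in hippocampus.

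**Figure D4:**
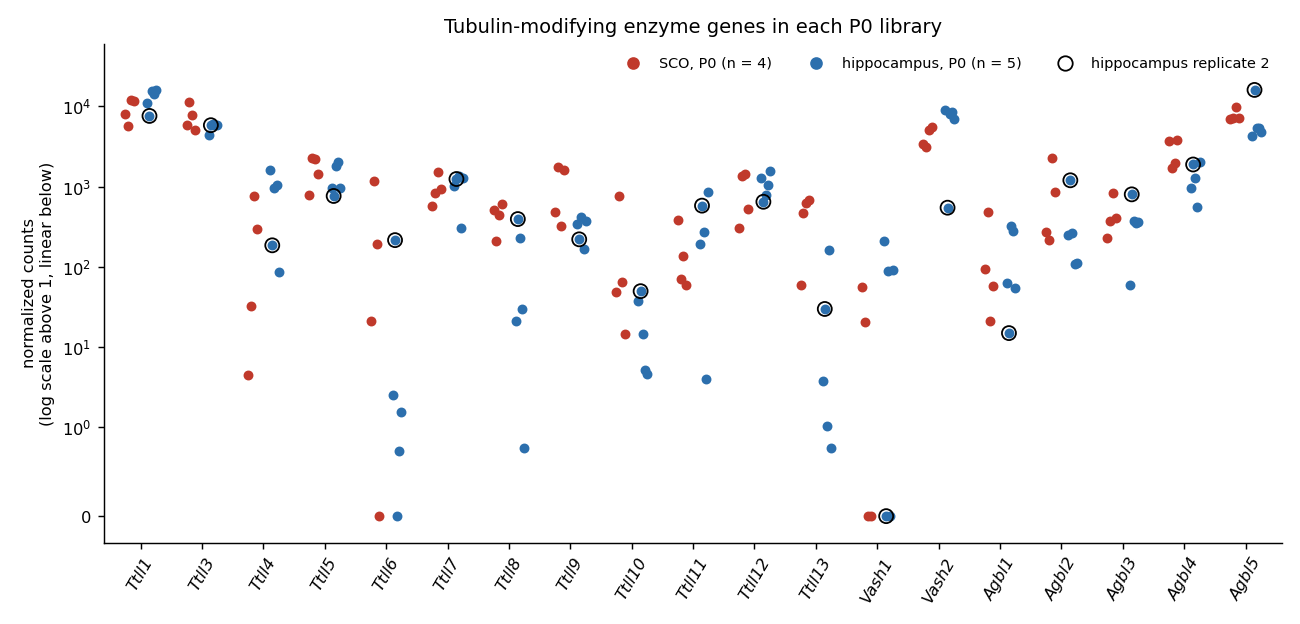
Normalized counts of the 19 tubulin-modifying enzyme genes in each library of SCO (left of each pair) and hippocampus (right), on a scale that is logarithmic above 1; the ring marks hippocampus replicate 2. Ttll13 spans 59.7 to 673 in SCO and 0.761 to 163 in hippocampus, and the ringed library lies far below the other hippocampus libraries for Vash2 and far above them for Agbl5.

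Hippocampus replicate 2 was the highest of the 5 hippocampus libraries for 14 tested members, with a median exon length of 3642.5 bases. It was the lowest for 20, with a median exon length of 9677 bases. For the other 29 members, where it lay between the other libraries, the median was 2891 bases, below that of both groups, so the order by length is not monotonic. The lowest group holds Dcx, Map1b, Map2, Dclk1 and Vash2, and the highest Tubb5, Mapt, Stmn1, Stmn2, Stmn3 and Tppp3. Exon length was taken as the union of all annotated exons, which can exceed the transcript that is expressed.

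**Figure D5:**
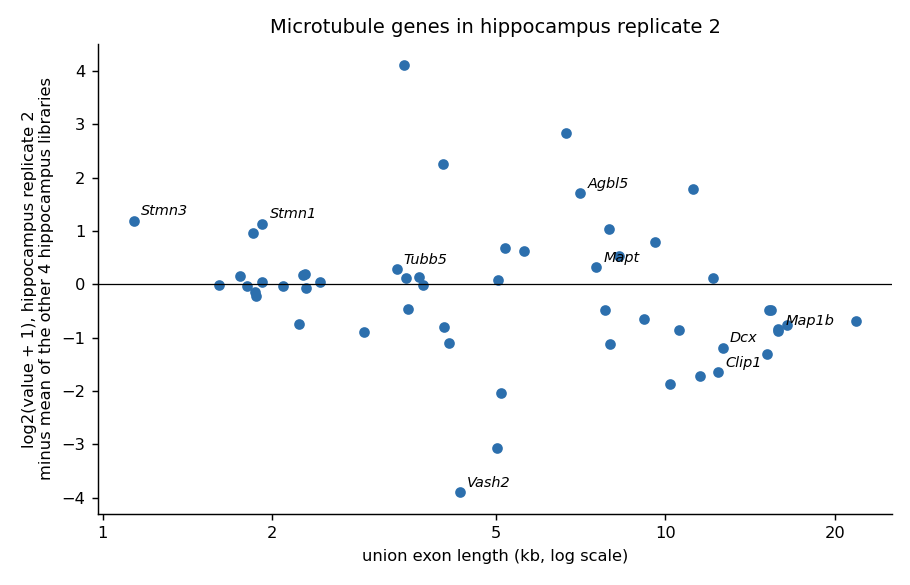
Difference on the log2(value + 1) scale between hippocampus replicate 2 and the mean of the other 4 hippocampus libraries, against union exon length on a log scale, for the 54 tested members with a hippocampus mean of at least 100 normalized counts. Of the 22 genes over 7 kb, 15 lie below 0, with a median of -0.67, and of the 16 under 3 kb, 8 lie above 0, with a median of 0.02.

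Other microtubule genes were read from a list of 85 symbols, of which 80 had a row and 77 were tested. Of these 7 were called higher and 1 lower, which is 9.09% and 1.30% against 1.71% and 1.34% over all tested genes. The list was chosen with earlier results of these data known. Its shares, and those of its parts, are therefore a description and do not measure enrichment. The median log2 fold change of the list was 0.03. Katnal2, a katanin-like subunit, rose by 2.36 ± 0.31 (SE) at a limma adjusted p of 0.00261, with 2515 ± 561 normalized counts in SCO and 482 ± 46.7 in hippocampus. Ckap5, a microtubule polymerase, rose by 1.58 ± 0.27 (SE), with a limma adjusted p of 0.0116. The severing gene Fign had 898 reads in SCO and 0 in all 5 hippocampus libraries (limma adjusted p = 0.0105, edgeR adjusted p = 0.0501). Its SCO mean was at least 86.6-fold above a hippocampus floor of 3 reads per library. The SCO libraries spread widely, with 11.9, 152, 322 and 486 normalized counts in replicates 1 to 4. Of 9 genes of ciliary microtubules, 7 were tested and 4 rose, 57.1% against 1.71% over all tested genes: Saxo2 (log2 fold change 2.96, SE 0.45), Tekt4 (2.69, SE 0.54), Tekt1 (1.95, SE 0.33) and Ccdc181 (1.16, SE 0.27). The call of Ccdc181 did not hold in edgeR (adjusted p = 0.0713).

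Atat1, which acetylates alpha tubulin, was the gene that fell, to 19484 ± 4067 normalized counts in SCO against 36246 ± 6303 in hippocampus (a log2 difference of -0.90 ± 0.20 SE and adjusted p = 0.0409 in limma). Its call did not hold in edgeR (adjusted p = 0.0774), and it held in 1 of the 9 fits with a library left out. Those of Tekt4 and Ccdc181 held in 4 and 2. Those of Katnal2, Ckap5, Fign, Saxo2 and Tekt1 held in all 9.

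In the authors' deposited table, 60 members have an adjusted p, and 3 with a positive and 10 with a negative log2 fold change have one under 0.05. DESeq2 on the recovered reads gave the same numbers, 3 and 10, where 7.06% and 5.75% of all genes were called higher and lower. Besides the 5 called by limma they were Ttll9 and Tubb1 with positive values, and Tuba1a, Tubb3, Map2, Dclk1, Stmn1 and Clasp1 with negative ones.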

How the data were processed

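Bulk RNA sequencing of P0 SCO (4 libraries) and P0 hippocampus (5 libraries) was taken from the table the authors deposited. Its values are, per the file headers and from the values, read counts per gene divided by a size factor per library (a signal that is never negative). The submitters' processing notes name FastQC, HISAT, HISAT2, featureCounts and DESeq2 and the build GRCm38, while strand setting and treatment of reads with several matches are not stated in the sources at hand. The table the authors deposited also gives the authors' mean, log2 fold change with its standard error, test statistic (a score), p-value and adjusted p-value per gene.

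Members and lists were chosen with earlier results of these data known. The main test was limma 3.58.1 (trend, R 4.3.3) on log2(value + 1) for genes averaging at least 1 in SCO or in hippocampus, with Benjamini-Hochberg adjustment over all genes tested. The tissue was the only term of the fit. A value divided by the amount of 1 read was whole within 1e-06 for 100% of values, and edgeR 4.0.16 (quasi-likelihood) and DESeq2 1.42.0 were run on these recovered reads as alternatives. Other alternatives were TMM scaling, pseudocounts of 0.5 and 10, no filter and a mean of at least 10, robust variance moderation, the replicate number as a block, and leaving out each library in turn. The fits were also run on simulated counts with known changes. The simulation held no library that departs with exon length, so it checks the code and not these libraries.

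Named genes were all called members, in each role the member with the highest level per length and the 2 with the largest absolute fold change, members whose call changed with the tool or a left-out library, and called genes of the other microtubule list. Other members named were chosen after their values were seen. Per-length levels divide normalized counts by union exon length of the GRCm38 annotation. Promoter sequences are from RefSeq (GRCm38.p6), matched by symbol, and bases inside the annotated gene were left out. Python 3.11.15 and matplotlib 3.10.9 were used for tables and plots.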

Additional observations from a re-analysis of the deposited data

Results flagged for a closer look

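For the 35 named members, 67 groups of 4 or 5 libraries were tested for a library far from the rest of its tissue by Dixon's test, and 10 met the 95% limit. Chance gives about 1 in 20 groups, but some of these members were named because 1 library changed their call, so the count is not to be read against that share. Over all 63 tested members, 17 of 123 groups met it (13.8%), 10 of them through hippocampus replicate 2. Of the 10 groups of named members, 7 were hippocampus replicate 2, the library that departs with exon length.

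In that library Stmn1 reached 337063 normalized counts (134969 to 175230 in the other 4 hippocampus libraries), Stmn2 99879.8 (62461 to 67454), Mapt 54514 (41979 to 44670.5) and Agbl5 16042 (4212 to 5386). Agbl2 reached 1197 (107 to 261) and Dclk3 267 (0 to 27.9), while Vash2 was lowest, at 545 (7030 to 9098). How far the length pattern, or for Agbl5 the bases shared with Ost4, accounts for these values was not tested.

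SCO replicate 3 held the most Agbl5 in SCO, 9916, against 6947 to 7252 in the other 3 libraries. Map7d3 was at 44.8 in SCO replicate 4 and at 0 in the other 3. Ttll13 was at 163 in hippocampus replicate 4, against 0.761 to 29.7 in the other 4 libraries.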

How the results depend on the processing

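Tppp3 was called in all 18 alternatives, with a log2 fold change of 2.24 to 2.77. Dcx and Mapt were called in 17 of 18 and lost their call with the replicate number as a block, Map1b was called in 13 and Tubb5 in 7. DESeq2 called 3 members higher and 10 lower, and over all genes 2708 (1493 higher, 1215 lower), with 11 and 5 in the other microtubule list. edgeR called 503 genes (300 higher, 203 lower), with 0 of the other list lower. In that list the lower count was 2 with TMM scaling, 0 with no filter and 3 with a mean of at least 10. With the replicate block, on replicates 1 to 4, 0 members were called lower and 1 higher, over all genes 180 (125 higher, 55 lower), and 0 and 0 in the other list. Same-numbered libraries did not deviate together (correlations across genes of 0.007, -0.028, 0.022 and -0.032). This cannot settle whether libraries are paired, because the replicate numbers follow the sample titles and the deposited columns carry other numbers. Leaving out 1 library gave 1 to 2 members higher and 2 to 7 lower, 498 to 1077 genes in all (285 to 647 higher, 189 to 430 lower), and 5 to 8 higher and 0 to 1 lower in the other list. Among the 35 named members, none of the called ones turned sign, and the log2 fold change did for Tubg2 (0.0400 in edgeR, 0.0638 in DESeq2, and -0.35 to 0.18 with a library left out), Mapre1 (-0.18 to 0.0389 with a library left out) and Vash2 (-0.97 to 0.0412 with a library left out). Over all 63 tested members, the range with a library left out crossed 0 for 10, with 0 called among them: these 3, Tuba8, Map1s, Mapre2, Ttll7, Ttll11, Agbl1 and Agbl3. The cause was not tested.

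Tuba3a, Tuba8, Tubb1, Map7d3, Dclk3, Ttll6 and Vash1 had libraries at 0. All of them but Tuba8 and Ttll6 were at 0 also in hippocampus replicate 4, the library with the most reads. Whether depth accounts for the values at 0 was not tested. Reads shared between near-identical tubulin genes limit single isotype values.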
